A study of Homo sapiens with 11 samples.

Results

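The comparison described here is the net change over the 6-day formation of an engineered myometrial microtissue, from day 1 to day 6, across all genes. Its members were picked by the day in each library's label and comprised the 3 day 1 libraries and the 4 day 6 libraries, 7 of 11 in the study. The other 4 libraries, from day 3, entered the statistical fit and are given where they help to place a value in time. The study built small contractile tissues in order to measure how they respond to oxytocin, and sequenced polyadenylated RNA on 3 days of their formation. The cells were hTERT-HM, 1 line of human myometrial smooth muscle cells made immortal with telomerase, labelled as wild type (WT), and the treatment label gives the day alone. Labels name replicates without saying whether they were separate cultures, so the spread between libraries may be technical.

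The myometrium is the muscle wall of the uterus. Its smooth muscle cells shorten when calcium and calmodulin activate myosin light chain kinase, and they switch in culture between a dividing, matrix-making state and a contractile state with abundant smooth muscle actin, transgelin and calponin. Serum response factor and its partner myocardin drive many contractile genes through a short promoter element called the CArG box.

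Levels are in CPM, counts divided by library size with TMM scaling, and depend on transcript length, so they compare libraries and not genes. A gene is called when the Benjamini-Hochberg adjusted p of edgeR's quasi-likelihood test, fitted to all 11 libraries, was below 0.05, and "rose" and "fell" below mean called in that test. The 7 libraries held 28598460 to 33021509 counts, and a count of 3, the limit that a count of 0 allows, was worth 0.0908 to 0.105 CPM and covers counting error only. The leading principal component of these libraries (58.55% of the variance) parted the days, with day 1 libraries between -51.1 and -30.2 and day 6 libraries between 26.9 and 34.3. A second component (12.06%) set day 6 replicate 3 apart, at 33.6 against values from -18.7 to 4.63 for the others. Results were therefore also computed without that library. Component 3 (8.16%) set replicate 2 of both days apart, at -18.4 on day 1 and -22.4 on day 6. The other libraries lay between 4.07 and 11.85 on it. The main fit had day as its only term, and a fit with a replicate block is given below. The cause of this split by replicate was not tested. TERT, the telomerase gene, stood at 1249.7, 1018 and 1194 CPM on day 1 and 1276, 893, 893 and 1236 CPM on day 6, overlapping ranges in a gene that was not called (edgeR adjusted p = 0.573).

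The labelled cell type was checked against marker genes. Of 9 tested smooth muscle markers 8 rose, and the 10 markers together took 0.0317% to 0.0512% of counts on day 1 and 0.11% to 0.138% on day 6. Desmin (DES) reached at most 2 counts in a library, and the smooth muscle myosin heavy chain MYH11 was low, at 1.24, 1.06 and 1.11 CPM on day 1 and 1.43, 1.22, 1.64 and 1.91 CPM on day 6, and was not called (edgeR adjusted p = 0.126; 0.045 on library totals). Fibroblast markers were abundant: they took 0.342% to 0.351% of counts on day 1 and 0.254% to 0.272% on day 6, and 3 of 9 tested rose and 3 fell. Most of that share was decorin (DCN), at 0.284% to 0.295% and then 0.185% to 0.206%, while the other fibroblast markers took 0.0557% to 0.0576% on day 1 and 0.0608% to 0.0706% on day 6. Markers of other cell types took smaller shares, some of them well above 0 counts in each library and others near 0. Over the 11 libraries the endothelial genes PECAM1 and TEK had 811 to 1024 and 223 to 458 counts, the epithelial gene KRT8 554 to 1169, and the myeloid genes CSF1R and CD14 173 to 310 and 98 to 332. The leukocyte gene PTPRC had at most 1 count in a library, the endothelial genes CLDN5 and ERG at most 2 and 1, and the epithelial genes EPCAM and CDH1 at most 2 and 3. Of 6 tested endothelial markers 1 rose and 3 fell, of 2 leukocyte markers 0 were called, and of 6 epithelial markers 1 rose and 4 fell. Their summed shares ranged over 0.00539% to 0.00571% (day 1) and 0.00485% to 0.00549% (day 6) for endothelial, 0.00146% to 0.00172% and 0.00128% to 0.002% for leukocyte, and 0.00543% to 0.00632% and 0.00485% to 0.00519% for epithelial markers. In bulk RNA, fewer cells of a type and less RNA per cell cannot be told apart.

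Of 18245 genes tested, 7287 (39.9%) were called. On day 6, 3882 genes were higher (21.3%) and 3405 lower (18.7%), and 8774 had an unadjusted p under 0.05. Most changes were small: the median absolute log2 fold change of called genes was 0.47, and 1277 called genes (7%) changed by more than 2-fold, 837 of them upwards and 440 downwards. Past 4-fold there were 124 rises and 59 falls. Counts in the gene lists below have as their background 39.9% of all tested genes called, 21.3% higher and 18.7% lower. Libraries of the 2 days did not overlap for 7623 genes (41.8%), among them 6447 of the called genes. The median over all genes was 0.02 on the log2 scale; scaling by library totals alone moved it to 0.15 and split the calls into 5966 higher and 2040 lower, while RLE factors gave 3620 and 3668 and DESeq2 3403 and 3558, so that neither direction prevailed under every scaling and the small changes described below as a direction are relative to the TMM scale.

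**Figure D1:**
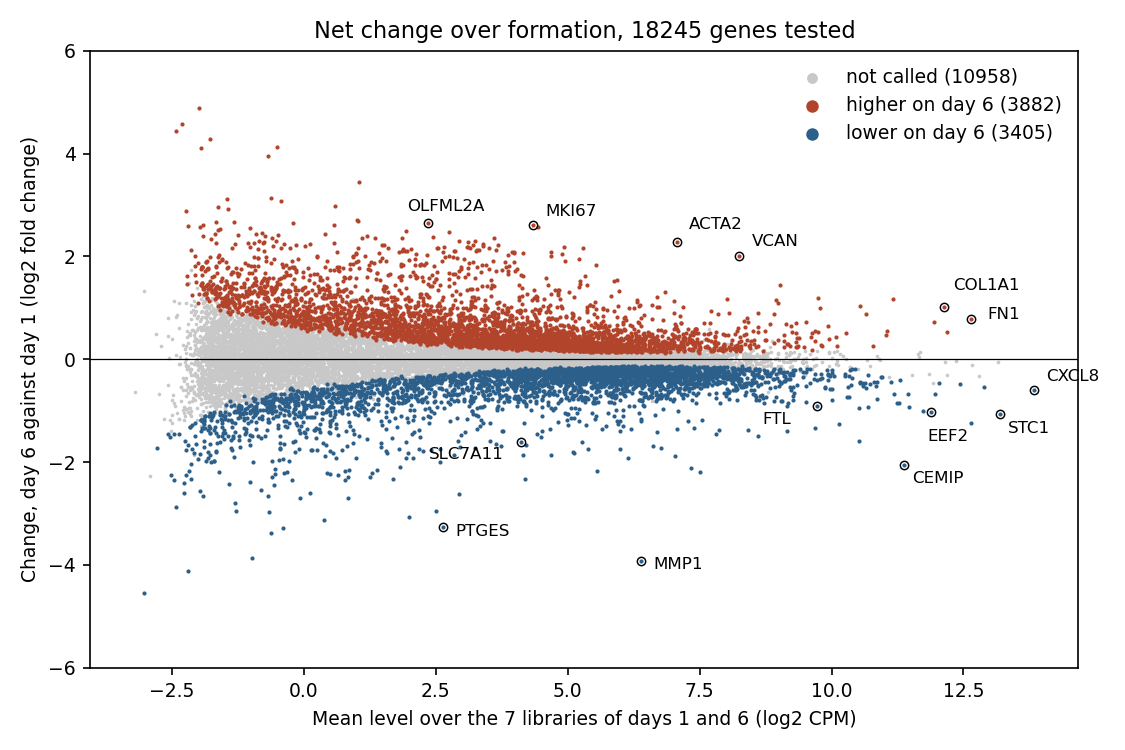
Mean level of each gene (log2 CPM over the 7 libraries of days 1 and 6, x axis) against its log2 fold change, day 6 against day 1 (y axis); red points were called higher (3882), blue points lower (3405) and grey points were not called. Named genes are circled, from OLFML2A and MKI67 at the top to MMP1 at the bottom, and 1 gene lies outside the plotted range of 6 log2 units.

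Falls outnumbered rises among abundant transcripts. Among the most abundant 4561 genes, at 41.6 CPM or above, 799 rose and 1567 fell, whereas among 4561 genes between 1.18 and 9.75 CPM 1240 rose and 624 fell. Falls in lists of abundant genes below have the former split as their background. The 100 most abundant genes of each library took 27.7% ± 0.947 of counts on day 1 (SD, n = 3) and 24.7% ± 0.737 on day 6 (SD, n = 4), with no overlap between the days. An exact two-sided permutation test gave p = 0.0286, the smallest that 35 assignments allow, and 0.114 after adjustment over 4 whole-library measures. At the depth of the smallest library, the expected number of detected genes was 30380 ± 383 for day 1 and 31930 ± 949 for day 6 (p = 0.0571 by the same exact permutation test, adjusted 0.114). The share of counts on mitochondrially encoded messenger RNA was 3.24% ± 0.244 and 2.88% ± 0.661, and that on genes that are not protein-coding 2.21% ± 0.0512 and 2.1% ± 0.224 (exact permutation p = 0.429 and p = 0.457, both adjusted 0.457).

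Most tested contractile filament genes rose. Of 26 tested, 21 rose and 1 fell, with a median log2 fold change of 0.53, and together the list took 0.796% to 0.952% of counts on day 1 and 1.38% to 1.42% on day 6. The 3 risen genes with the smallest adjusted p among those with a CArG box in the RefSeq promoter (GRCh38.p14, 250 bases before to 50 after the gene start) are printed, because this element is the known docking site of serum response factor; capitals mark the box, and the sequences run 5′ to 3′ on the gene's strand. They are FLNA at chrX:154374585-154374884 (minus strand), ACTG2 at chr2:73892758-73893057 (plus strand) and MYLK at chr3:123620499-123620798 (minus strand).
FLNA: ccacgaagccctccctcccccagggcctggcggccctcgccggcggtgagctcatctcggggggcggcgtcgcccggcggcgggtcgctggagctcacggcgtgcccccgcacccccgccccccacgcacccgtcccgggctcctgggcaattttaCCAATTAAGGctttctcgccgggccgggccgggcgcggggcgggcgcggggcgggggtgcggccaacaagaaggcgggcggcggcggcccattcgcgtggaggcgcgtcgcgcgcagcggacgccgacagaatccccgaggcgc
ACTG2: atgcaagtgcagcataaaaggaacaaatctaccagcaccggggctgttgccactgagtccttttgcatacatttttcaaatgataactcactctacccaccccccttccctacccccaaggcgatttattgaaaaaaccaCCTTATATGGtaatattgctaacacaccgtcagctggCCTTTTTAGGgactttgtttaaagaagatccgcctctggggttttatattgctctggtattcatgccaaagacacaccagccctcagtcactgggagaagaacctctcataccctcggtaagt
MYLK: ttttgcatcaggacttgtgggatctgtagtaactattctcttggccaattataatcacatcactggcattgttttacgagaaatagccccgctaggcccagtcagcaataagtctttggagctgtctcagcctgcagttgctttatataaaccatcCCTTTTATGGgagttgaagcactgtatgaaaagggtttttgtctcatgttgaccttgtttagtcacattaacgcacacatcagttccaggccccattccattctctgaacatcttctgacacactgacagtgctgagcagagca
The box starts at position -94 from the gene start in FLNA and MYLK, and at -110 and -73 in ACTG2. Among called risen members of the contractile and regulator lists with a RefSeq promoter, 6 of 24 (25%) held a CArG box on either strand, against 1.12% of the 11840 promoters of tested genes and 1.29% of all 27305. Over both lists, called or not, 8 of 40 members with a promoter held one. A match is a description of these letters and no proof of a site. The lists searched for motifs here and below hold genes known for each pathway. A share above that of all genes therefore does not bear on the direction of change.

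FLNA encodes filamin A, which crosslinks actin under the membrane. Its level was 1031, 956 and 811 CPM in the day 1 libraries and 1972, 1934, 1859 and 1838 CPM in the day 6 libraries, without overlap, a log2 fold change of 1.03 (SE 0.0793, edgeR adjusted p = 2.21e-08). ACTG2, the gamma actin of visceral smooth muscle, went from 5.25, 6.88 and 3.98 CPM to 20.9, 25.7, 20.9 and 24.1 CPM, with each day 6 value at least 3 times the highest of day 1. MYLK, the kinase that starts contraction, stood at 25.3, 29.8 and 23 CPM and then 58.4, 55.6, 50.2 and 46.7 CPM. For all 3 genes day 1 replicate 3 was the lowest library. Of the other risen members, the filament nucleator leiomodin (LMOD1) rose by 0.81, synaptopodin 2 (SYNPO2) by 0.80, cardiac actin (ACTC1, 1.46) from 0.779 ± 0.0411 to 2.14 ± 0.822 CPM, and the non-muscle myosin MYH9 by 0.47. SMTN, which encodes smoothelin of contractile cells, fell from 242 ± 17.1 to 189 ± 17.8 CPM (log2 fold change -0.36, edgeR adjusted p = 0.000389).

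Among 20 regulators of smooth muscle genes, 7 rose and 6 fell (6 and 6 with RLE factors). MYOCD, which encodes myocardin, was at 57.1, 60 and 46 CPM on day 1 and 66, 74.2, 77.4 and 70.8 CPM on day 6, after 31.6 ± 2.01 CPM on day 3 (mean ± SD, n = 4). Its net rise was modest, 0.41 on the log2 scale, and its day 3 mean was below both ends. The zinc finger factors GATA6 (log2 fold change 1.73) and KLF4 (1.16) rose more, from 0.637 ± 0.342 to 2.11 ± 0.676 CPM and from 2.39 ± 0.299 to 5.33 ± 0.982 CPM, and the co-factors TEAD1 and FHL1 rose by 0.41 and 0.41. Falls were seen for the mesenchymal factors PRRX1 (-0.44) and TWIST1 (-0.49), for KLF5 (-0.44), and for the ETS factors ELK1 and ELK3 (-0.29 and -0.31).

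Calcium and oxytocin signalling genes moved in both directions: of 33 tested, 12 rose and 9 fell. PLCB1, the phospholipase that couples Gq receptors to inositol trisphosphate, rose from 10.8, 10.7 and 10.7 CPM to 22, 19.7, 20 and 21.2 CPM. The receptor channel genes diverged, ITPR2 by 0.84 and ITPR3 by -0.59, and the L-type calcium channel gene CACNA1C rose by 0.75. Of the genes of store-operated entry, ORAI1 fell by 0.51, ORAI3 by 0.45 and STIM1 by 0.32 on the log2 scale, while STIM2 rose by 0.21 and ORAI2 was not called (-0.03), both named here after their values were seen. The largest fall was in brakes on G protein signalling. RGS4 went from 379.9, 275 and 418 CPM to 129, 116, 169 and 141 CPM and RGS5 from 179, 139 and 224 CPM to 35.7, 42.6, 86.7 and 54.4 CPM, with log2 fold changes of -1.37 and -1.72 (edgeR adjusted p = 3.21e-05 and 0.00158). Expression of the oxytocin receptor gene OXTR was low, 7.02, 5.18 and 4.74 CPM and then 6.78, 10.8, 9.53 and 8.33 CPM, and rose by 0.65 although the ranges overlapped.

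Of 17 tested potassium and chloride channel genes, 7 rose and 4 fell. KCNMB1, the smooth muscle subunit of the large-conductance potassium channel, had 0, 0 and 0.0318 CPM on day 1 and 0.446, 0.438, 0.455 and 0.403 CPM on day 6, values near the counting limit on day 1. The pore gene KCNMA1 rose by 0.29, the stretch-gated KCNK2 by 1.17 (from 16.8 ± 3.64 to 37.9 ± 2.54 CPM) and the KATP subunit ABCC9 by 0.89, while KCNN4, typical of dividing smooth muscle, fell by 0.53. Of 18 junction genes 7 rose and 3 fell: CDH6 rose from 4.49 ± 0.655 to 14.6 ± 2.8 CPM, and CDH11, CDH13 and PCDH7 by 0.42, 0.59 and 0.91. The gap junction gene GJA1 was not called: its levels were 314, 308 and 292 CPM on day 1, 509 ± 33.3 on day 3 and 472, 389, 284 and 389 on day 6.

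**Figure D2:**
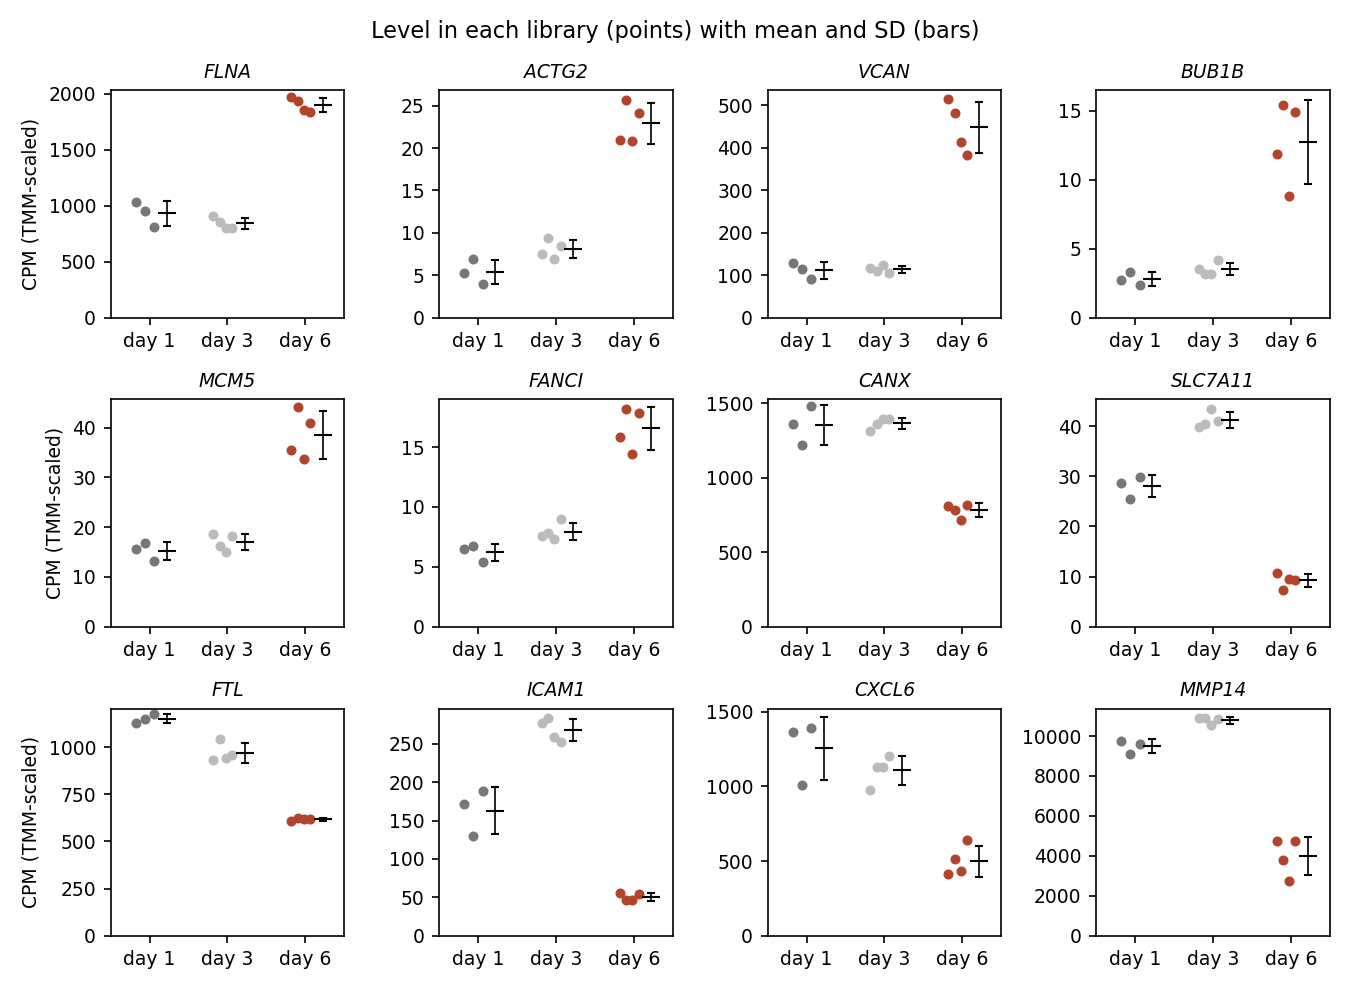
TMM-scaled CPM of 12 genes in each library (points) of days 1, 3 and 6, with the mean and SD of each day (bars); each y axis starts at 0. In every panel the 7 libraries of days 1 and 6 do not overlap: the first 6 genes, FLNA to FANCI, are higher on day 6, and the last 6, CANX to MMP14, are lower.

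Cell division genes had the highest median of the 59 lists, which were chosen with earlier results of these data known. All 33 tested mitosis genes rose, 32 by more than 2-fold, with a median log2 fold change of 2.12, and took 0.0103% to 0.0167% of counts on day 1 and 0.0497% to 0.0792% on day 6. Mitotic genes are known to share the cell cycle homology region (TTTGAA), where the DREAM and MuvB complexes bind. The promoters of the 2 risen members with this motif and the smallest adjusted p are shown, with the motif in capitals: CENPA at chr2:26785806-26786105 (plus strand), the histone of the centromere, and BUB1B at chr15:40160819-40161118 (plus strand), a kinase of the spindle checkpoint.
CENPA: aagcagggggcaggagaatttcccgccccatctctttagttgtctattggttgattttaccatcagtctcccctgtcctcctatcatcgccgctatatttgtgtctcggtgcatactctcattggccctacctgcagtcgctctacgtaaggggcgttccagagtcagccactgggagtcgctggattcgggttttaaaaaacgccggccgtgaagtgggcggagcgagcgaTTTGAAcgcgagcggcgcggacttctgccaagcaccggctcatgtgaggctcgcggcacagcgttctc
BUB1B: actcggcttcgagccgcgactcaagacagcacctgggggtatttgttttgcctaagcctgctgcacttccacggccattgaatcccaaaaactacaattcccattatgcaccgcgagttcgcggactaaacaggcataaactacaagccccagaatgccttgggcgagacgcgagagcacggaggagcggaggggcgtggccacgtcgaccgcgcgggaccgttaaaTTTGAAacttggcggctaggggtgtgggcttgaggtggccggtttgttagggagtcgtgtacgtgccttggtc
The motif starts at positions -18 and -23 from the gene start. It was found in 22 of 28 (78.6%) called members with a promoter, on either strand, and in 10.1% of promoters of tested genes. CCAAT was found in 22 of the 28 as well, against 36.5% of promoters of tested genes.

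CENPA was at 1.09, 0.964 and 0.70 CPM on day 1 and 3.95, 5.41, 3.13 and 4.8 CPM on day 6, and BUB1B at 2.76, 3.32 and 2.35 CPM and 11.9, 15.4, 8.8 and 14.9 CPM. For both genes the lowest day 6 library was more than 2 times the highest day 1 library. CENPF, HMMR, KIF20A, DLGAP5, BUB1, KIF18B and CIT act on spindle, kinetochore or cleavage furrow. They were among the 12 largest rises of called protein-coding genes that averaged 5 CPM or more and did not overlap between days, between 2.23 (BUB1) and 2.57 (CENPF). On day 6 the lowest library for each of these 7 genes was replicate 3. The proliferation marker MKI67 stood at 28.2, 40.6, 22.9 and 35.4 CPM on day 6.

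Of 35 DNA replication genes 34 rose, with a median log2 fold change of 1.04. The helicase subunit gene MCM5 went from 15.7, 16.7 and 13.2 CPM to 35.6, 44.1, 33.7 and 40.9 CPM, and MCM3, MCM6 and the ligase LIG1 rose by 0.70, 1.22 and 0.90. Repair genes of homologous recombination and the Fanconi anaemia pathway, which mend crosslinks and stalled forks, rose in 20 of 24 cases (median 1.17). FANCI, which clamps DNA together with FANCD2, was at 6.46, 6.78 and 5.38 CPM and then 15.8, 18.2, 14.4 and 17.8 CPM. Its partner FANCD2 rose by 1.53, the E2 enzyme UBE2T by 1.61 and the nuclease EXO1 by 1.90. The E3 ligase of the same step, FANCL, was the member that fell, from 23.2 ± 1.11 to 18.2 ± 1.31 CPM (log2 fold change -0.35, edgeR adjusted p = 0.00158).

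Among 27 chromatin and DNA methylation genes, 13 rose and 2 fell: UHRF1, which recruits the maintenance methyltransferase, went from 8.45, 9.57 and 6.49 CPM to 23.1, 30.1, 22.2 and 25.6 CPM, and the remodeller HELLS and the histone chaperone ASF1B rose by 1.63 and 1.83. HDAC9 and HDAC1 fell, by 0.58 and 0.19. Nuclear envelope and caveola genes showed 14 rises and 0 falls among 19 tested. SYNE1, a giant linker of nucleus and cytoskeleton, was at 26.4, 29.6 and 24 CPM and then 57, 54.4, 57 and 52.8 CPM, and CAV1, the coat protein of caveolae, at 252, 232 and 215 CPM and then 399, 389.8, 394 and 379 CPM, both without overlap. The lamin gene LMNB2 and the lamin partner TMPO rose by 0.89 and 1.01. Of 24 tubulin, motor and septin genes 13 rose and 3 fell: TUBB and TUBB4B rose by 0.64 and 0.70, while TUBA4A and MAP1A fell by 0.77 and 0.71. Cell cycle inhibitors and p53 targets were divided, with 7 of 27 risen and 5 fallen; CDKN1A (p21) fell by 0.19, a call lost on library totals, CCNG1 by 0.72 and CDKN2C rose by 0.43.

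Matrix genes rose selectively. Of 14 fibrillar collagen genes 6 rose and 1 fell, and of 27 matrix glycoproteins 12 rose and 1 fell. COL6A3, a chain of the beaded filament collagen, was at 1556, 1350.5 and 1127 CPM on day 1 and 3498, 3108, 2754 and 2726 CPM on day 6, COL12A1 at 314, 299.6 and 263 CPM and 707, 543, 609 and 737 CPM, and COL5A3 rose by 1.90. Periostin (POSTN) rose from 28.4 ± 3.19 to 81.6 ± 12.1 CPM, CCN4 by 1.99 and the fibrillin gene FBN2 by 0.84. Among proteoglycans, 9 of 23 rose and 4 fell. VCAN, the large hyaluronan-binding versican, was at 129, 115 and 90.7 CPM on day 1 and 514, 482, 413 and 384 CPM on day 6, a log2 fold change of 2.01 (SE 0.131, edgeR adjusted p = 2.77e-07). Small leucine-rich proteoglycans went both ways, since lumican (LUM) rose by 0.58 while decorin (DCN) and biglycan (BGN) fell from 2940.4 ± 118 to 1849 ± 129.9 CPM and from 1580.4 ± 46.8 to 1118 ± 144 CPM. CEMIP, which depolymerises hyaluronan, fell from 4769, 3929.7 and 5338 CPM to 1658, 664, 871 and 1335 CPM.

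Enzymes acting on collagen changed in both directions. Of 24 processing genes 7 rose and 6 fell: the extracellular crosslinking oxidases LOX, LOXL2 and LOXL4 rose by 0.67, 0.62 and 0.65, while P4HB, FKBP10, PLOD1, P3H1 and P4HA2, which modify or fold procollagen inside the endoplasmic reticulum, fell by 0.45, 0.31, 0.28, 0.22 and 0.39. On library totals PLOD1 and P3H1 were no longer called. With library totals as the scale 13 of these genes rose and 3 fell, and with RLE factors 6 and 6. Basement membrane genes showed 7 rises and 5 falls among 21 tested; COL4A1 rose by 0.90, and SMOC1 and LAMB2 fell by 0.79 and 0.53. The 5 falls numbered 3 without day 1 replicate 3 and 2 without day 1 replicate 1.

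Metalloproteinases and their inhibitors showed 12 falls and 4 rises among 24 tested (8 and 5 on library totals). MMP14, the membrane-bound collagenase, was at 9762, 9119.8 and 9606 CPM on day 1, 10790.0 ± 177 CPM on day 3 and 4738, 3766, 2735 and 4756 CPM on day 6, a log2 fold change of -1.25 (edgeR adjusted p = 5.99e-06). MMP13 and MMP10 fell by 1.82 and 2.96, the aggrecanase ADAMTS4 by 0.98 and the sheddase ADAM17 by 0.54, while ADAM19 and ADAMTS12 rose by 0.90 and 0.52. Of 14 plasminogen system and clotting genes 2 rose and 3 fell (35.7% called, against 39.9% over all genes), among them the protease inhibitor SERPINE2, by 0.84. Integrin and focal adhesion genes showed 13 rises and 6 falls among 25 tested (16 and 3 on library totals). ITGA2, a collagen receptor chain, fell from 876, 828 and 946 CPM to 388, 288, 278 and 395 CPM and ITGA7, a laminin receptor chain of muscle, by 0.76, whereas ITGA6, another laminin receptor chain, rose from 19.8, 18.7 and 16.2 CPM to 34.6, 44.8, 35.2 and 36.1 CPM and ITGA4, which binds fibronectin, by 0.77. Of 21 YAP and TEAD targets 10 rose and 0 fell, among them CCN2 (1.16), the feedback regulator PTPN14 (0.59) and TGFB2 (0.73). Of 30 actin regulators 10 rose and 4 fell (14 and 2 on library totals), and cytoplasmic actins ACTB and ACTG1 rose from 2845 ± 335 to 4714 ± 323 CPM and from 1672 ± 199 to 2462 ± 179.5 CPM.

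Genes of protein folding in the endoplasmic reticulum fell almost without exception: of 24 tested 21 fell and 2 rose (median -0.44). The unfolded protein response, a stress pathway, is known to raise such genes through the ER stress element, in which CCAAT and CCACG stand 9 bases apart. The promoter of CANX, the fallen member with this element and the smallest adjusted p, lies at chr5:179698679-179698978 (plus strand), with the element in capitals.
CANX: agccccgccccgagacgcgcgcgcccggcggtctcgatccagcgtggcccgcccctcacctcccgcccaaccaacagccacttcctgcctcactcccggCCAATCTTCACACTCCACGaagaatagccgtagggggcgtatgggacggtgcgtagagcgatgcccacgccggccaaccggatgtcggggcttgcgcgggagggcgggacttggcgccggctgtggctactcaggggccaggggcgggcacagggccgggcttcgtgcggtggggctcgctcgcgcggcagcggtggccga
Here the element starts at position -151 from the gene start. Of 20 fallen members with a promoter, 6 (30%) held it (CANX, HSP90B1, CALR, HSPA5, CRELD2 and XBP1), against 14 (0.118%) of the promoters of tested genes. Over the whole list 6 of 23 members with a promoter held it.

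CANX, which encodes the glycoprotein chaperone calnexin, was at 1358, 1219.5 and 1484 CPM on day 1 and 807, 780.5, 716 and 819.8 CPM on day 6. DNAJB9, a co-chaperone induced by unfolded protein, fell most, from 225, 204 and 263 CPM to 95.9, 109, 87.8 and 107 CPM, a log2 fold change of -1.21 (SE 0.0841, edgeR adjusted p = 1.9e-08). The chaperone HSP90B1 fell by 0.74 and the kinase inhibitor DNAJC3 by 0.57. The members that rose were 2 membrane-bound transcription factors that are cut in the Golgi, ATF6 (0.15) and CREB3L1 (0.28); both calls were lost without day 1 replicate 1. Early secretory pathway genes showed 16 falls and 0 rises among 28 tested; the translocon gene SEC61A1 went from 790.0 ± 42.9 to 501 ± 33.4 CPM and the retrieval receptors KDELR1 and KDELR2 fell by 0.46 and 0.41.

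Amino acid supply genes under ATF4, the effector of the integrated stress response, showed 17 falls and 3 rises among 26 tested (13 and 5 on library totals). CHAC1, which degrades glutathione and had the smallest adjusted p of the fallen members with it, holds the ATF4 composite element (TGATGNAA) on the opposite strand of its promoter, at chr15:40953221-40953520 (plus strand), with the element in capitals.
CHAC1: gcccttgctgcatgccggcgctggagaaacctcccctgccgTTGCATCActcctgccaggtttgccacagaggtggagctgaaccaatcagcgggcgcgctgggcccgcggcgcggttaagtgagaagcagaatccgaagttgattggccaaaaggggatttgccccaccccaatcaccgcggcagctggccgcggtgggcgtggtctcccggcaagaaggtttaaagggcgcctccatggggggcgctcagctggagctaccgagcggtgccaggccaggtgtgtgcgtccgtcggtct
The element starts at position -209 from the gene start. It was found in 3 of 14 (21.4%) fallen members with a promoter, against 1.77% of promoters of tested genes. Over the whole list, fallen or not, 6 of 22 members with a promoter held it, so it was not particular to the members that fell.

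CHAC1 fell from 16.1, 12.7 and 16.1 CPM to 5.92, 6.42, 4.61 and 6.41 CPM. SLC7A11, the cystine carrier, was at 28.7, 25.5 and 29.9 CPM on day 1, 41.2 ± 1.58 CPM on day 3 and 10.6, 7.32, 9.53 and 9.37 CPM on day 6, a log2 fold change of -1.61 (SE 0.093, edgeR adjusted p = 9.2e-10). Its partner chain SLC3A2 and the glutamine carrier SLC38A1 each fell by 0.76 on the log2 scale. Against the rest of the list, the 3 enzymes of serine synthesis rose: PHGDH by 0.60, PSAT1 by 0.76 and PSPH by 0.29, the last not called without day 1 replicate 1 or 3. Asparagine synthetase (ASNS), a main ATF4 target, had at most 8 counts in any library and could not be tested. Aminoacyl-tRNA synthetases showed 7 rises and 3 falls among 20 tested (11 and 1 on library totals, 4 and 3 with DESeq2), FARSB by 0.66 and VARS1 by 0.52.

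Falls in translation genes were mostly small. Of 36 cytosolic ribosomal protein genes 29 fell and 0 rose, with a median log2 fold change of -0.26; 17 fell on library totals. RPL5 was at 624, 609.9 and 633 CPM and then 449.6, 486, 423 and 446 CPM. Of 26 translation factors 13 fell and 1 rose (10 and 6 on library totals). The elongation factor EEF2 fell most, from 5423, 5053 and 5569.6 CPM to 2982, 2558, 2117 and 2852 CPM, and EIF4B, EIF3E and EIF2S3 fell by 0.80, 0.50 and 0.54. EIF4A1, the risen member, had 2.2, 2.09 and 1.5 and 2.01, 3.5, 3.46 and 2.35 CPM and lost its call with DESeq2 (adjusted p = 0.0522), with limma-voom (0.0563) and with days 1 and 6 alone (edgeR, 0.0759). That level is low for a gene of this function, and the part of counting rules in it was not tested. Of 30 genes that build ribosomes 13 rose and 2 fell: the polymerase I subunit POLR1B rose by 0.58 and its co-factor TCOF1 by 0.39, and the falls were NOB1 (-0.54) and NPM1 (-0.34). Splicing factors showed 7 rises and 2 falls among 28 tested (16 and 1 on library totals), a called share of 32.1% against 39.9% over all genes. SRSF7 changed by 0.53 and SRSF5 by -0.41.

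Protein turnover genes fell more often than they rose. PSMA5, SQSTM1 and PSAP lay above 41.6 CPM, a range in which 1567 of 4561 tested genes fell and 799 rose. Of 31 proteasome genes 16 fell and 0 rose (9 and 1 on library totals), with PSMA5 at 80.8, 83.6 and 88.9 CPM and then 61.5, 67.5, 66.1 and 65.3 CPM. Lysosome and autophagy genes fell in 19 of 28 cases (median -0.29). SQSTM1, the autophagy receptor p62, went from 759.5, 745 and 824 CPM to 426, 413, 435 and 454 CPM, PSAP, which activates lysosomal lipid hydrolases, from 2434 ± 73.3 to 1417 ± 103 CPM, and LAMP2 and MAP1LC3B fell by 0.46 and 0.40. TFEB, the transcription factor that drives lysosomal genes, was the member that rose, by 0.35. Heat shock and chaperonin genes showed 11 falls and 2 rises among 26 tested (10 and 5 on library totals); the small heat shock genes CRYAB, HSPB7 and HSPB8 fell by 1.62, 1.24 and 0.95, and HSPB6, a relaxation-linked partner in smooth muscle, rose by 0.67.

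Antioxidant genes and targets of NRF2 fell in 20 of 28 cases, with a median log2 fold change of -0.41. NRF2 binds the antioxidant response element (core TGACNNNGC). The promoter of TXNRD1, thioredoxin reductase, the fallen member with this core and the smallest adjusted p, lies at chr12:104215529-104215828 (plus strand), and its 2 matches, at positions -99 and -8 from the gene start (the latter on the opposite strand), are in capitals.
TXNRD1: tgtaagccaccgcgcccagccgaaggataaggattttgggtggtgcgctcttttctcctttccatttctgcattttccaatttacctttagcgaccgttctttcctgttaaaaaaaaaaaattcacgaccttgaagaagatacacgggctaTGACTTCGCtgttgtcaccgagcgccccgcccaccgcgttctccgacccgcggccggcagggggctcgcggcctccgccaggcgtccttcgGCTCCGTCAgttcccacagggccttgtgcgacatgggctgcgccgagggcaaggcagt
In 5 of 14 (35.7%) fallen members with a promoter the core was found, against 15.1% of promoters of tested genes, so this short motif is common. Over the whole list 6 of 20 members with a promoter held it. FTL, the light chain of the iron store ferritin, was at 1128, 1149 and 1176 CPM on day 1 and 608, 624, 617 and 619.9 CPM on day 6 (log2 fold change -0.90, SE 0.0595, edgeR adjusted p = 3.86e-09). FTL, like ribosomal protein, actin and elongation factor genes, has many near-identical pseudogenes, so its counts are uncertain to that extent. TXNRD1 and TXN fell by 0.70 and 0.67, the pentose phosphate enzyme TKT by 0.76 and the mitochondrial dismutase SOD2 by 0.92. NFE2L2, the gene of NRF2 itself, was the member that rose, from 186, 195 and 195 CPM to 251, 232, 221 and 253 CPM. The aldo-keto reductase AKR1C1, another known NRF2 target, fell from 119, 83.5 and 164 CPM to 25.9, 23.3, 56.3 and 23.6 CPM, with its highest day 6 value in replicate 3.

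Of 23 cholesterol synthesis and uptake genes 17 rose and 2 fell, and the rises numbered 13 without day 1 replicate 3 and 15 without day 6 replicate 3. FDPS, which makes farnesyl pyrophosphate, went from 49.3, 50.6 and 42.8 CPM to 63.6, 67.1, 87.9 and 67.2 CPM, and SQLE and MVK, 2 other enzymes of the pathway, rose by 0.52 and 0.75. The highest day 6 library for each of these 3 genes was replicate 3. The cyclase gene LSS and the feedback gene INSIG1 fell, LSS from 320.1, 281 and 347 CPM to 144, 170.5, 202 and 188 CPM. The sterol regulatory element in the form TCACNCCAC was in the promoters of 0 of 12 risen members and in 1.13% of those of tested genes. With so rare a motif, 12 promoters are too few to show a lack of it, and other forms were not searched. Over the whole list 1 of 18 members with a promoter held it. Fatty acid and lipid droplet genes showed 8 rises and 9 falls among 25 tested. On library totals 9 rose and 5 fell. The synthesis, elongation and desaturation genes ACACA, ELOVL6 and FADS1 rose by 0.32, 0.37 and 0.21. The droplet coat gene PLIN2 went from 217, 185 and 274 CPM to 56.3, 60.6, 52.1 and 74.9 CPM, the lipase inhibitor G0S2 fell by 1.08, and the acyltransferase DGAT2 went from 7.39 ± 0.791 to 3.45 ± 0.375 CPM.

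In the lists of glycolysis, of the tricarboxylic acid cycle and fatty acid oxidation, and of nuclear oxidative phosphorylation subunits, 0 genes were called with a change past 2-fold. Of 24 glycolysis genes 3 rose and 9 fell (8 and 6 on library totals), with GAPDH at 2654, 2499.8 and 2727 CPM and then 1813, 2058, 1833 and 1988 CPM and PFKP up by 0.37. Of 28 genes of the tricarboxylic acid cycle and fatty acid oxidation 4 rose and 8 fell (8 and 4 on library totals). CPT1A, which admits fatty acids to mitochondria, and ACADVL, the first enzyme of their oxidation, fell by 0.75 and 0.78. Nuclear subunits of oxidative phosphorylation showed 7 rises and 4 falls among 35 tested (31.4% called, against 39.9% over all genes). Each was by less than 0.35 on the log2 scale except COX4I1, which fell by that amount. Library totals gave 19 and 1, RLE factors 5 and 5, and leaving out day 1 replicate 1 gave 1 and 1. Mitochondrially encoded messenger RNAs fell in 5 of 13 cases (38.5%, against 39.9% called over all genes), 1 of them by more than 2-fold (log2 fold change -1.35). Of the 13, 1 had no overlap between the days, and MT-ATP6 was among those that overlapped. Leaving out day 1 replicate 3 gave 2 falls, day 1 replicate 1 or day 6 replicate 3 gave 3, and another single library gave up to 11. Hypoxia response genes showed 5 rises and 9 falls among 20 tested: VEGFA rose by 0.43 and LOX by 0.67, while CA12, NDRG1 and the lipase inhibitor ANGPTL4 fell by 0.85, 0.66 and 2.12.

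More inflammatory genes fell than rose. Of 26 cytokine and chemokine genes 15 fell and 5 rose, and of 21 NF-kB genes 17 fell and 2 rose (medians -0.55 and -0.47). NF-kB is known to act through kappa B sites. Among the fallen members with such a site, CXCL6, a neutrophil chemokine, had the smallest adjusted p, and its promoter at chr4:73836428-73836727 (plus strand) is shown with 2 overlapping matches in capitals.
CXCL6: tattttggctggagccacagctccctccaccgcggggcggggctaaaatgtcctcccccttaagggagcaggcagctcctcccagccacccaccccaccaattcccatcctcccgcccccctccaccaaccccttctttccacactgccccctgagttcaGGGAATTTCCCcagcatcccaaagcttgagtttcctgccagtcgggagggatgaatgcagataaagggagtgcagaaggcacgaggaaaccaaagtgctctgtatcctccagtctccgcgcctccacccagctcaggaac
The matches start at positions -90 and -89 from the gene start. Of 28 fallen members of both lists with a promoter 12 (42.9%) held a kappa B site, against 6.65% of promoters of tested genes. Over both lists, fallen or not, 17 of 41 members with a promoter held one, among them the risen genes CCL20 and BIRC3. The site was thus not particular to the members that fell.

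CXCL6 fell from 1361, 1008 and 1394 CPM to 410.0, 513, 434 and 639 CPM, and day 1 replicate 2 was the lowest of its day. IL1A, an alarm cytokine, went from 38.6, 31.2 and 47 CPM to 13.9, 15.3, 17 and 14.6 CPM, and ICAM1, the leukocyte adhesion molecule, from 171, 129.5 and 188 CPM to 55.3, 45.9, 46.4 and 54.3 CPM after 268 ± 14.8 CPM on day 3. TNFAIP2 fell by 1.39 and the subunit gene RELB by 0.43. The natural antagonist of interleukin 1, IL1RN, fell as well, by 1.12. Among the members that rose, CCL2 and CCL7, which attract monocytes, went from 327 ± 57.1 to 598 ± 88 CPM and from 3.01 ± 0.978 to 8.2 ± 1.0 CPM, and LIF and CCL20 rose by 0.99 and 0.93. LIF stood at 1455 ± 136 CPM on day 3, against 559 ± 60.3 on day 1 and 1112 ± 299 on day 6.

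Of 30 interferon-stimulated and MHC class I genes 5 rose and 9 fell (8 and 6 on library totals); the rises numbered 1 without day 1 replicate 3. The antigen presentation genes HLA-B, HLA-E, TAP1 and B2M fell by 0.33, 0.58, 0.30 and 0.32, and the viral RNA sensor OAS3 rose by 0.87. Complement genes showed 6 rises and 7 falls among 19 tested (7 and 6 on library totals). C3, the hub of the cascade, went from 1021, 864 and 1044 CPM to 564, 439.8, 538 and 654 CPM and C1R and SERPING1 fell by 0.51 and 0.75, whereas C5 rose from 1.86, 1.46 and 1.02 CPM to 6.24, 5.35, 4.01 and 5.31 CPM. The rises include the near-identical C4A and C4B, which share reads and are uncertain. C4A was not called with DESeq2 (adjusted p = 0.0589). Levels of C4A, C4B and C7, another risen member, were low, at means of 0.118, 0.301 and 0.277 CPM on day 1. On day 6 these means were 0.339, 0.641 and 0.813 CPM. In the prostaglandin list 7 of 21 genes fell and 2 rose (4 and 4 on library totals), a called share of 42.9% against 39.9% over all genes. PTGES, the synthase of prostaglandin E2, was at 12.1, 9.9 and 16.4 CPM on day 1, 37 ± 3.23 CPM on day 3 and 1.97, 0.845, 0.607 and 1.95 CPM on day 6. The receptors of this prostaglandin moved in opposite directions: PTGER3, which lowers cyclic AMP, fell from 6.58, 4.42 and 7.8 CPM to 1.59, 1.03, 1.76 and 1.48 CPM, and PTGER4, which raises cyclic AMP, rose from 5.28, 5.62 and 4.96 CPM to 12.7, 13.5, 9.65 and 13.5 CPM. AKR1B1, which makes prostaglandin F2-alpha, fell by 1.58, and the carrier SLCO2A1 rose by 1.17.

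**Figure D3:**
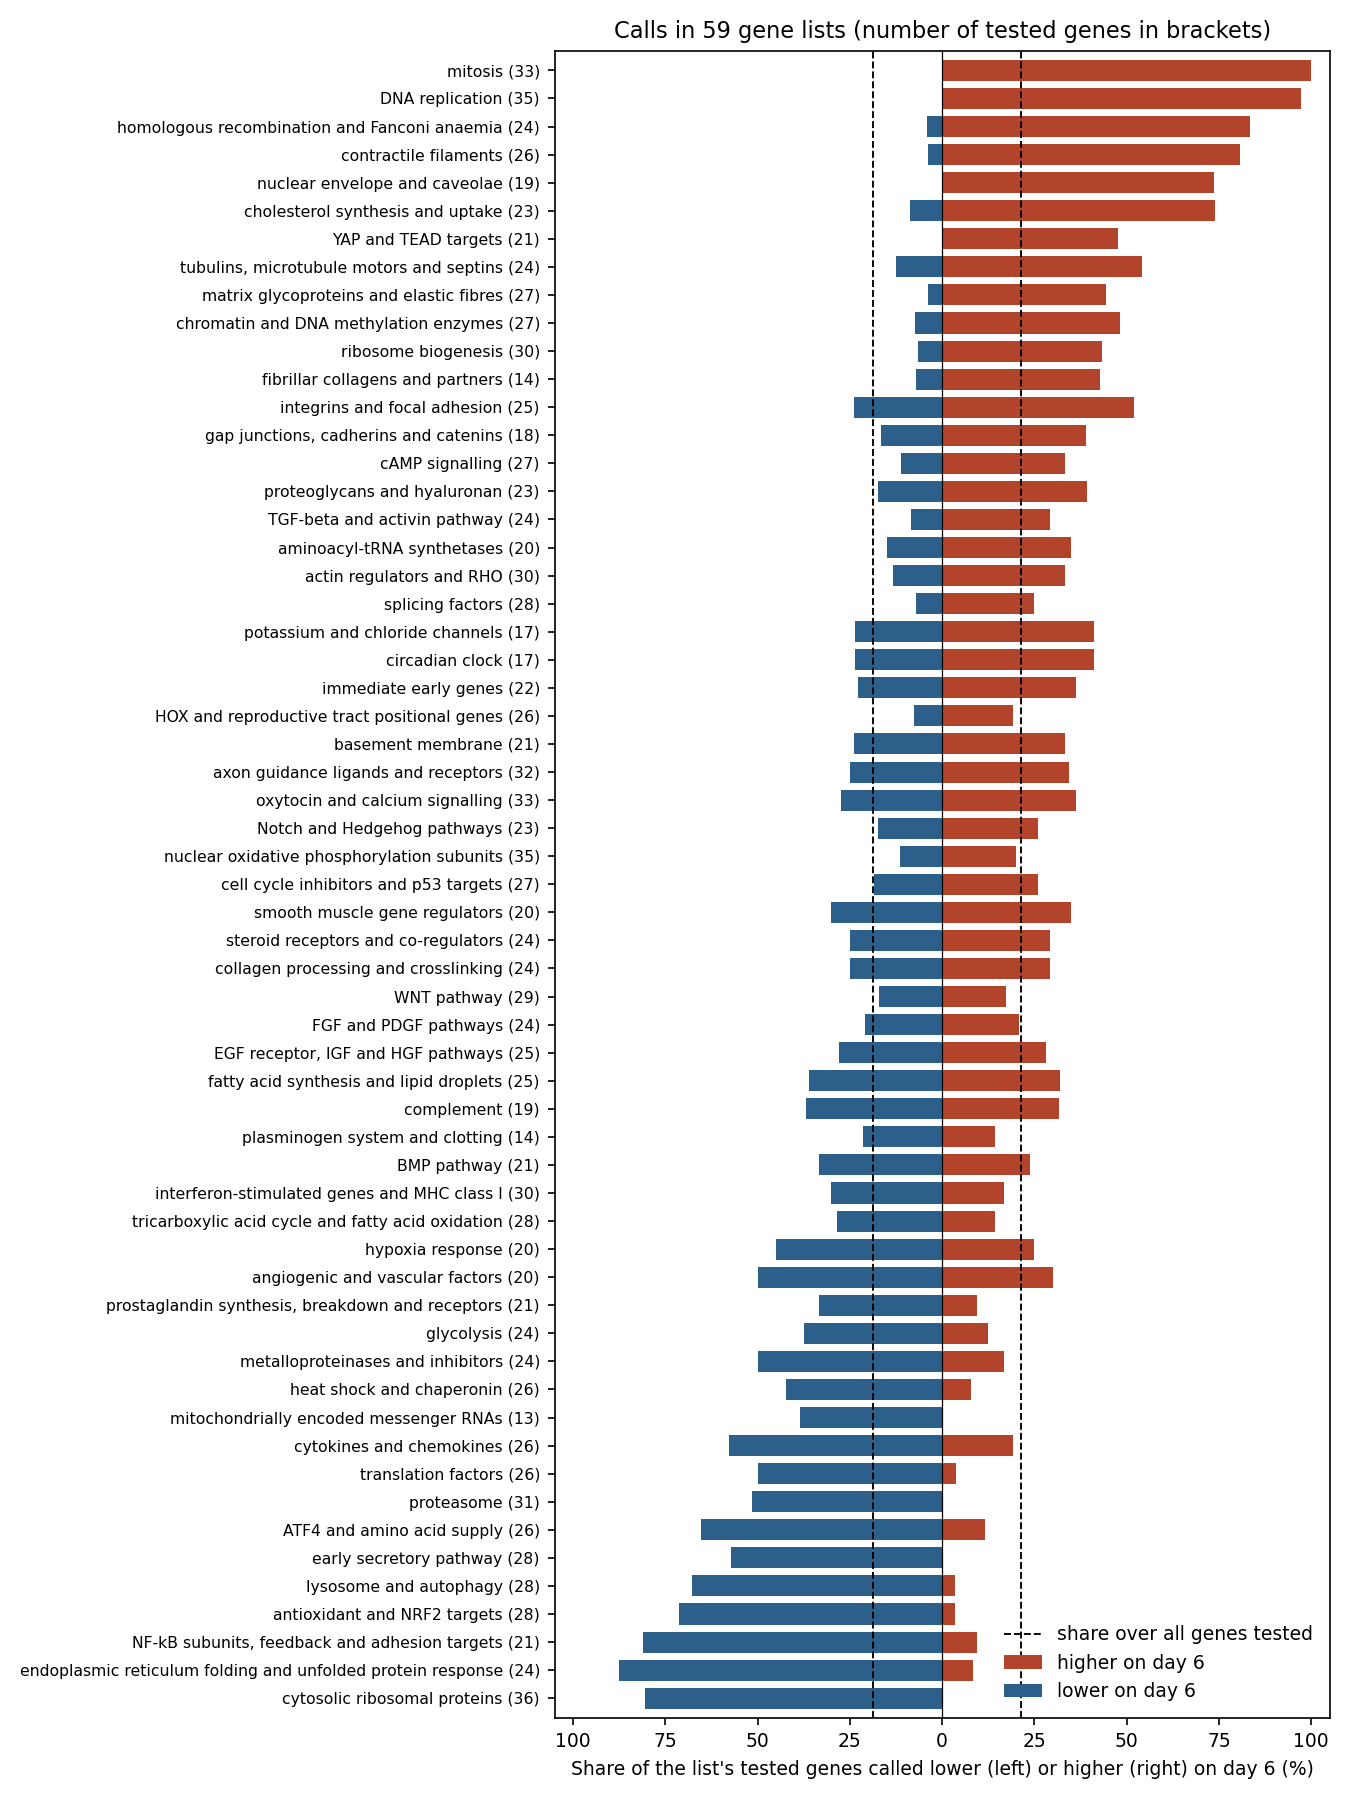
Share of each list's tested genes that were called higher (red, to the right) or lower (blue, to the left) on day 6, ordered by the difference, with the number of tested genes in brackets; dashed lines give the shares over all genes tested, 21.3% higher and 18.7% lower. Mitosis and DNA replication stand at one end, with 33 of 33 and 34 of 35 genes higher, and endoplasmic reticulum folding and ribosomal proteins at the other.

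**Figure D4:**
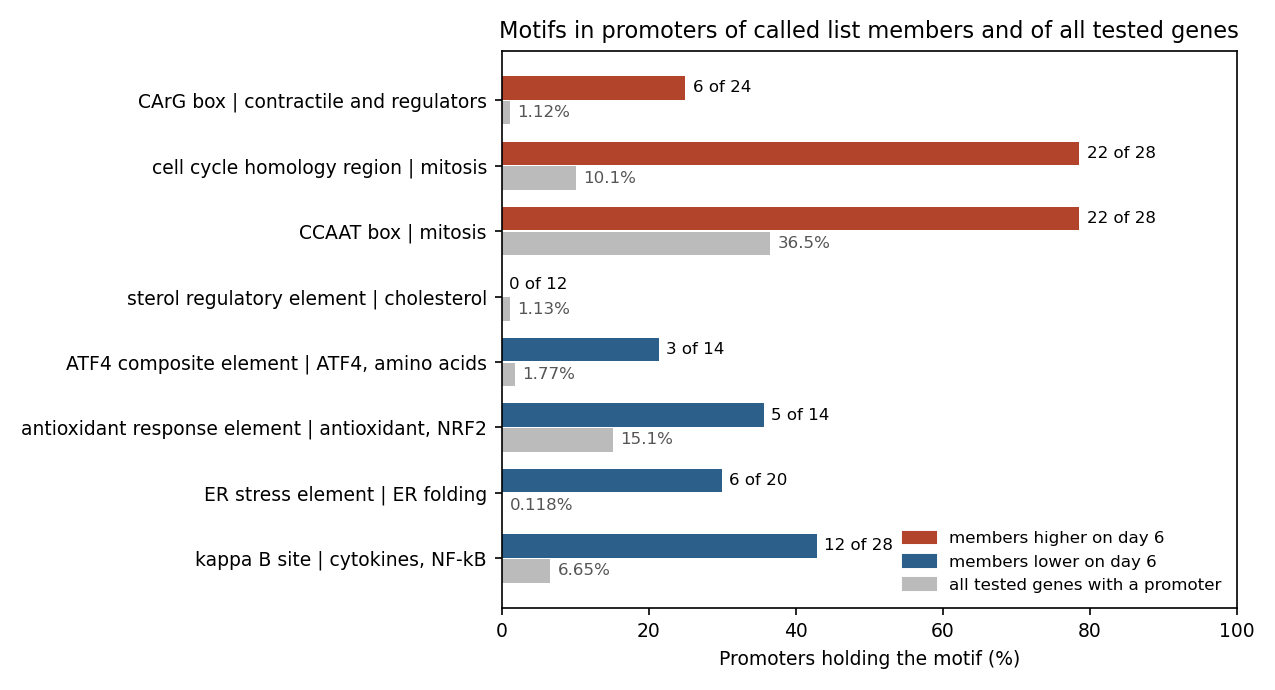
Share of RefSeq promoters that hold each motif on either strand, for called list members in the direction shown (red higher, blue lower) and for the 11840 promoters of tested genes (grey). The cell cycle homology region was in 22 of 28 mitosis promoters, and the sterol element in 0 of 12 cholesterol promoters, too few to show a lack of so rare a motif.

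Growth factor pathways changed member by member. Called shares were 37.5% for TGF-beta, 57.1% for BMP, 34.5% for WNT and 43.5% for Notch and Hedgehog genes, against 39.9% over all genes tested. In the TGF-beta list 7 of 24 genes rose and 2 fell (11 and 1 on library totals); the signal transducer SMAD3 went from 54.4, 70.2 and 62.4 CPM to 150.3, 174, 101 and 193 CPM and the activin antagonist FST rose by 0.72. In the BMP list 5 of 21 rose and 7 fell (7 and 5 on library totals). The ligands BMP2 and BMP4 fell by 0.95 and 0.48 and the decoy receptor BAMBI by 0.86, BMP2 from 50, 41.9 and 45.9 CPM to 27.2, 23.6, 21.1 and 23.1 CPM, while the antagonist CHRD rose by 1.60, to 1.08 ± 0.0721 CPM, and the target ID1 by 0.38. WNT genes showed 5 rises and 5 falls among 29 tested (9 and 2 on library totals). DKK2, a WNT antagonist, was at 6.49, 5.42 and 4.84 CPM and then 33.7, 20.3, 20 and 19.7 CPM, and the feedback gene NKD1 and the nuclear effector LEF1 rose by 1.89 and 1.06. Notch and Hedgehog genes showed 6 rises and 4 falls among 23 tested. Notch ligands diverged, with JAG1 up by 0.66 and JAG2, DLL1 and DLL4 down by 1.98, 0.92 and 1.67. The fallen ligands were low, at means of 1.45, 2.28 and 0.819 CPM on day 1 and 0.365, 1.2 and 0.255 CPM on day 6. JAG1 went from a mean of 7.25 to 11.5 CPM. NOTCH2 rose by 0.43 while NOTCH3, the receptor of vessel smooth muscle, fell by 0.71. The Hedgehog targets HHIP and PTCH1 rose by 1.15 and 0.94.

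FGF and PDGF genes showed 5 rises and 5 falls among 24 tested (6 and 3 on library totals), a called share of 41.7% against 39.9% over all genes. FGF1 rose by 1.00, and the receptor PDGFRB fell from 782 ± 72.2 to 550.1 ± 47.3 CPM. In the list of EGF receptor, IGF and HGF genes 7 of 25 rose and 7 fell (8 and 5 on library totals). IRS1, the adaptor of insulin-like growth factor receptors, went from 57.6, 49.3 and 46.1 CPM to 112, 106, 108 and 93.2 CPM and IGF1R rose by 0.46, while the binding proteins IGFBP5 and IGFBP6 fell by 0.54 and 0.83. IGF1 itself was near the counting limit, at 0.031, 0.133 and 0.127 CPM and then 0.796, 0.438, 0.273 and 0.403 CPM. Angiogenic and vascular genes showed 6 rises and 10 falls among 20 tested, with VEGFC down by 0.75 and the endothelin receptor EDNRB by 1.20. Guidance genes showed 11 rises and 8 falls among 32 tested (10 and 10 with RLE factors). NTN1, which encodes netrin 1, fell from 14.9, 16.2 and 16.2 CPM to 4.97, 3.79, 4.95 and 5.44 CPM (log2 fold change -1.72, SE 0.102, edgeR adjusted p = 1.15e-09), SEMA3F fell by 0.85, and SLIT2, SEMA3A and EPHB2 rose by 0.93, 0.64 and 1.20.

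Genes of cyclic AMP signalling showed 9 rises and 3 falls among 27 tested (16 and 3 on library totals, 4 and 3 without day 1 replicate 3). Their called share was 44.4%, against 39.9% over all genes. The phosphodiesterase PDE4B went from 28.2, 29.2 and 26.3 CPM to 59.1, 59.6, 58.7 and 53.2 CPM, and PDE4D and the cyclic GMP enzyme PDE5A rose by 0.74 and 0.66. The adenosine receptor gene ADORA2A fell from 1.52, 1.4 and 1.81 CPM to 0.0637, 0.125, 0.243 and 0.201 CPM. The other falls of this list were GNAS, by 0.28, and CALCRL, by 0.70. Immediate early genes showed 8 rises and 5 falls among 22 tested (7 and 7 with RLE factors, 12 and 4 on library totals): EGR2 went from 1.96, 3.69 and 2.51 CPM to 13.6, 15.4, 10.6 and 13 CPM and MYC, JUN and FOSB rose by 1.16, 0.59 and 1.01, while DUSP1, NR4A1 and IER3 fell by 0.49, 0.63 and 0.67. Steroid receptor and co-regulator genes showed 7 rises and 6 falls among 24 tested (9 and 1 on library totals), with the repressor NCOR1 up by 0.46 and NR2F2, a uterine orphan receptor, by 0.37. Clock genes showed 7 rises and 4 falls among 17 tested; the activators BMAL1 and CLOCK rose by 0.42 and 0.28, and the times of day of sampling are not given in the sources used here. HOX and reproductive tract genes had the lowest called share of the 59 lists (26.9%), with 5 of 26 risen and 2 fallen (8 and 2 on library totals), and PAX8, a reproductive tract factor, down by 0.59.

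Several of the largest changes belonged to no such list. OLFML2A, an extracellular olfactomedin protein, had the largest rise of the called genes that code for protein, averaged 5 CPM or more and did not overlap between days, from 1.46, 1.36 and 1.02 CPM to 9.52, 8.32, 7.92 and 6.28 CPM (log2 fold change 2.64, SE 0.186, edgeR adjusted p = 7.21e-09), and the calcium-binding protein gene CALB2 rose from 3.14, 3.32 and 2.26 CPM to 16.1, 16, 14.3 and 11 CPM. The collagen receptor gene OSCAR fell from 12.2, 8.97 and 10.3 CPM to 2.61, 2.69, 2.55 and 2.72 CPM and the ferroxidase-like gene HEPHL1 from 32.7, 26.3 and 41.6 CPM to 5.09, 6.88, 5.19 and 9.77 CPM. In CPM gained, with no correction for length, the leading rises included FN1, COL1A1, ACTB, COL6A3, THBS1, FLNA, ACTG1, MYH9 and TGFBI, which are matrix, matricellular or cytoskeletal genes. Leading losses were the secreted hormone gene STC1, CXCL8, MMP14, CEMIP, IGFBP5, EEF2, CSF3, IL1B, EEF1A1 and SOD2, and STC1 alone went from 13356, 12613 and 14110.0 CPM to 7166, 5799, 4658 and 7851 CPM. Genes other than protein-coding behaved differently by class: of 3288 long noncoding RNA genes 583 rose and 304 fell (median 0.15), and of 1559 pseudogenes 54 rose and 311 fell (median -0.22), where reads shared with parent genes make the values uncertain. SNHG7, a snoRNA host gene, went from 49.3, 42.6 and 49 CPM to 21.5, 20.2, 19.3 and 21.7 CPM, MIR22HG, the host gene of a microRNA, fell by 1.11, and MIR34AHG, another such host, rose by 1.27.

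IGHE was not detected on day 6. This gene, the constant region gene of the epsilon immunoglobulin heavy chain, which lies at chr14:105597691-105601728 (GRCh38) and is named here after its values were seen, had 36, 27 and 13 counts in the day 1 libraries, 27, 32, 30 and 23 on day 3, and 0 in each of the 4 day 6 libraries. Against the floor of 3 counts over the day 6 group, day 1 was at least 31.2-fold higher (edgeR adjusted p = 2.14e-06). It was the sole gene with 0 counts in every library of one day and at least 10 in every library of the other. Some list members had almost no counts: EEF1G had 0 in every library, NUSAP1 at most 3, NDUFV2 at most 8 and PSMA2 at most 15. Each of these is overlapped by another row of the deposited table, and so is ASNS; the part of counting rules in these values was not tested.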

How the data were processed

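Libraries were made from oligo-dT selected RNA primed with random hexamers, per the labels' protocols. The authors deposited raw counts per gene for all 11 libraries. DRAGEN, STAR 2.7.11b, Salmon 1.10.0, Subread, featureCounts 2.0.8 and GRCh38 are named in the submitters' processing notes, with no role stated. The annotation release, the strand setting and the treatment of reads that map to several places are not given in the sources used here, so overlapping, antisense and near-identical genes cannot be told apart with certainty. The deposited table had 79031 rows, of which 99 were not human (at most 2 counts per library in all) and were left out.

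Counts were scaled by TMM and tested with edgeR 4.0.16 (quasi-likelihood test, R 4.3.3) over all 11 libraries with day as the only term. Genes were kept by edgeR's filterByExpr function (minimum count 10, minimum total count 15) and p-values adjusted by the Benjamini-Hochberg method over 18245 genes. The test across genes was tested on simulated data. Whole-library measures were compared by exact two-sided permutation tests. Library totals were 28598460 to 33021509 counts for days 1 and 6. Alternatives were other scalings, DESeq2 1.42.0, limma 3.58.1 (voom), other filters, blocks, a fold threshold, and leaving out each library.

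Members and the 59 gene lists were chosen with earlier results of these data known. Genes named are the largest changes, in each list those called with the lowest adjusted p, list members called against their list, the largest CPM gains and losses, and a fixed set of myometrial genes. Promoters are from RefSeq (GRCh38.p14); 27305 were searched on both strands, and the CArG box and kappa B site are given by name alone. Values of some genes that this rule selects are not reported here.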

Additional observations from a re-analysis of the deposited data

Results flagged for a closer look

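In 15 of 283 measures examined, 1 of the 4 day 6 libraries lay far from the other 3 (Dixon's test at its 95% critical value), a share near the 1 in 20 groups that chance gives. Day 6 replicate 3, which the second principal component set apart, accounted for 6 of them. It was the highest library for AKR1C1 (56.26 CPM) and FDPS (87.87 CPM), and the lowest for ABCC9 (2.579 CPM), DCN (1655 CPM), EEF1A1 (3897 CPM) and JAG1 (9.345 CPM). Day 6 replicate 4 was the lowest for CCN4 (7.086 CPM), PDE4B (53.19 CPM) and POSTN (63.7 CPM) and the highest for FHL1 (83.55 CPM). Replicate 2 was the lowest for BMP4 (10.39 CPM) and IGFBP5 (5305 CPM) and the highest for ITGA6 (44.81 CPM), and replicate 1 was the highest for BGN (1333 CPM) and DKK2 (33.74 CPM). The part of these libraries in each net change was not tested beyond leaving each out in turn.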

How the results depend on the processing

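The count of 7287 called genes was 7288 with RLE factors, 8006 on library totals, 6961 with DESeq2 and 7250 with limma-voom. Testing against a change of 1 on the log2 scale left 278 genes, 184 higher and 94 lower. Higher and lower genes numbered 5966 and 2040 on library totals, 3620 and 3668 with RLE factors and 3403 and 3558 with DESeq2, against 3882 and 3405, and a filter of 1 CPM in 3 libraries left 805 genes past 2-fold. Leaving out single libraries gave 5389 (without day 1 replicate 3) to 7262 called genes. Replicate numbers are shared by the days but mark no shared source in the labels. Deviations of same-numbered day 1 and day 6 libraries correlated at 0.0657, 0.103 and 0.0128, and those of differently numbered ones at -0.0833 to 0.0642. Component 3 of the principal components set replicate 2 of both days apart. Whether libraries of the same number share a source was not tested. The replicate block gave 7119 called genes, 3765 higher and 3354 lower, and a block by the letter of the column names 5183. Of 482 named genes, 8 lost their call with the replicate block, 53 with the letter block, 39 on library totals, 7 with DESeq2, 409 against a change of 1 on the log2 scale, 49 without day 1 replicate 3 and 46 without day 1 replicate 1. The fall in the share of the 100 most abundant genes was -3.54 to -2.60 percentage points without single libraries, where the exact permutation p was 0.0667 to 0.1. Those are the smallest p that the two-sided test allows with 1 library fewer, so they cannot show dependence on a library. Counting genes with at least 1 CPM, the difference was 399 genes (exact permutation p = 0.0286). Direction changed in 3 genes that were not called: DPT (0.03) was -0.15 with the letter block and ran from -0.053 to 0.10 without single libraries. FAP (-0.01) was 0.12 on library totals, 0.0065 with upper-quartile factors, and ran from -0.12 to 0.071 without single libraries. TERT (-0.10) was 0.022 on library totals. For each of these the cause was not tested. At 28598460 counts or more per library, depth leaves genes under about 0.1 CPM unresolved, and 3 or 4 libraries a day limit small changes.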
